A study of Mus musculus with 22 samples.

Results

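The transcripts of 10 genes of the tumour necrosis factor (TNF) system were followed in bone marrow-derived macrophages (BMDM): the ligands Tnf, Lta, Ltb, Tnfsf9, Tnfsf10, Tnfsf15 and Tnfsf13b, and the receptors Tnfrsf1a, Tnfrsf1b and Fas. All array probes were taken whose RefSeq accession belongs to 1 of these symbols, which gave 11 of 55681 non-control probes. All 11 were above the limit on dim probes, so the 10 genes, 7 ligands and 3 receptors, stand among 22383 genes tested. The macrophages were grown with M-CSF from the femurs of C57BL/6 mice, labelled male and 10 to 14 weeks old, and came from wild-type (wt) mice or from mice deficient for the kinase MK2 (MK2-/-) or for this kinase and its relative MK3 (MK2/3-/-). Cultures received 100 ng/ml lipopolysaccharide (LPS), a cell wall component of Gram-negative bacteria, for 360 min or medium alone. Arrays from 3 LPS-treated and 4 medium-treated wt cultures were compared with 4 and 4 MK2-/- and with 4 and 3 MK2/3-/- cultures, which by the methods of the study come from independent experiments. Wt mice were 12 to 13, MK2-/- mice 10 to 13 and MK2/3-/- mice 11 to 14 weeks old. The deletions are constitutive, so the cells had lacked the kinases throughout their differentiation in culture, and MK3 was deleted only together with MK2.

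TNF is the prototype of a family of trimeric ligands, most of them made as membrane proteins, that bind receptors of the TNF receptor superfamily. Macrophages are a main source of TNF, and its transcript is known both for rapid transcription through NF-κB and for control of its stability and translation by the p38, MK2 and tristetraprolin pathway. Lymphotoxin α (Lta) binds the same receptors as TNF when secreted as a homotrimer, and together with lymphotoxin β (Ltb) forms a membrane-bound heterotrimer that binds the lymphotoxin β receptor. TNFR1 (Tnfrsf1a) and Fas carry a death domain, whereas TNFR2 (Tnfrsf1b) has none and recruits TRAF proteins.

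Tnf, Lta and Ltb lie next to each other on chromosome 17, and the 250 bases before the transcription start of each are shown because Tnf and Lta were called after LPS in wt and Ltb was not. The same stretch is shown for Tnfrsf1b, 1 of the 2 members called between MK2/3-/- and wt BMDM under LPS. Its call was close to the threshold, and genotype and slide cannot be told apart. The other, Tnfsf15, is not printed and held none of the motifs searched below. Sequences are RefSeq promoters of GRCm38.p6, printed from 5′ to 3′ on the strand of the gene, with motif matches in capitals.
Tnf, chr17:35202008-35202257, minus strand: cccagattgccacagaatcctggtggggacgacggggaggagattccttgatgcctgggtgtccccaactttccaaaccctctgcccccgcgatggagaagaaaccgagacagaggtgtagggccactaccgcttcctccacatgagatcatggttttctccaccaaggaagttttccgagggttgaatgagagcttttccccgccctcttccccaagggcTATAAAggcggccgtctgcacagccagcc
Lta, chr17:35205352-35205601, minus strand: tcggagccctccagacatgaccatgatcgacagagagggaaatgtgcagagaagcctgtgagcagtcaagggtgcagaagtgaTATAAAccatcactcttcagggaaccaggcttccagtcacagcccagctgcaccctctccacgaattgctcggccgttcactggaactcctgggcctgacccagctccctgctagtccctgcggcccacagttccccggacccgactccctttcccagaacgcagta
Ltb, chr17:35194257-35194506, plus strand: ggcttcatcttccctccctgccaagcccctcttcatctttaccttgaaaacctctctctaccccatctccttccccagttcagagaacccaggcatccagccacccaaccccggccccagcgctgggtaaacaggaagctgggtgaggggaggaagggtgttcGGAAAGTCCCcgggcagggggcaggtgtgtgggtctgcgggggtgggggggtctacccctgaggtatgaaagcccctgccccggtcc
Tnfrsf1b, chr4:145246871-145247120, minus strand: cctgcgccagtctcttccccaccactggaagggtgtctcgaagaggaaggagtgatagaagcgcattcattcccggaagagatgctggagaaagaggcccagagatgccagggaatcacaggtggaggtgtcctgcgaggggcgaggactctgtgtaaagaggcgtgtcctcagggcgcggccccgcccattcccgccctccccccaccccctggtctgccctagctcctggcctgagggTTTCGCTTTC
Promoters were available for 9 of the 10 members, with Tnfsf9 as the exception, and were searched on both strands for 4 motifs: the TATA box (TATAAA), the AP-1 site (TGANTCA), a pair of GAAA separated by any 2 bases, as bound by interferon regulatory factors (IRF motif), and the consensus of NF-κB sites. The capitals mark TATAAA in Tnf, 29 to 24 bases before the start, and in Lta, 167 to 162 bases before it. In Ltb they mark the NF-κB consensus, 87 to 78 bases before the start and read on the opposite strand. In Tnfrsf1b they mark the IRF motif, which lies on the opposite strand in the last 10 bases. Of 32851 mouse promoters of this length, 12.4% hold the TATA box, 3.9% the NF-κB consensus, 2.98% the IRF motif and 6.75% the AP-1 site. The AP-1 site was matched in Fas and in 1 of the windows of Tnfsf13b, which also held the IRF motif, and Tnfsf10, Tnfsf15 and Tnfrsf1a held none of the motifs. None of these matches overlapped another, and a match is a description of the letters only.

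All macrophage markers on the array (6 of 7 listed) were well above background on all 22 arrays, and the T cell, B cell, NK cell, neutrophil, dendritic cell, mast cell and fibroblast lists had 2 or 3 genes each above it on all arrays. Of the mast cell list Tpsb2 and Mcpt4 were above background on all 22 arrays and Fcer1a on 0. Over the arrays the summed log2 signal of the fibroblast list ranged from 8.7 to 16.64, most widely in MK2/3-/- medium. The part of other cells in the results was not tested, and in bulk RNA fewer cells of a type and less RNA per cell cannot be told apart. Mapkapk2, which encodes MK2, had log2 signals of 10.77 to 12.39 in medium and 14.28 to 15.33 after LPS in wt, and was lower on every knockout array of the same treatment (8.34 to 9.01 and 10.86 to 11.95). Mapkapk3, which encodes MK3, was lower only in MK2/3-/- BMDM, with 7.65 to 11.4 against 11.92 to 13.42 on all other arrays. Whether their probes lie in the deleted parts was not examined. Both arrays of replicate 3 of MK2-/- BMDM, labelled male, lacked signal of the Y-linked genes Ddx3y, Eif2s3y and Uty. They also had the highest log2 signals of Xist, 7.66 with LPS and 7.78 in medium, against at most 5.79 on the other arrays. These values go against the label, and calls that changed without these arrays are given below. Without them the LPS responses in MK2-/- BMDM were 6.22 for Tnf, 6.65 for Tnfsf9, 7.33 for Tnfsf10, 7.63 for Tnfsf15, 2.89 for Tnfrsf1b and 4.12 for Fas on the log2 scale, each with an adjusted p of at most 7.37e-07. In medium-treated wt BMDM, replicate 4 had raised levels of LPS-inducible genes, Tnfsf10 and Tnfsf15 among them. All arrays of a genotype lay on 1 slide, hence any direct comparison of genotypes is also one of slides, and these cannot be told apart.

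Tnf and Lta rose strongly after LPS in all genotypes. The Tnf probe (NM_013693, 10 spots per array) had log2 signals of 9.64, 10.46, 9.55 and 10.60 in medium-treated wt BMDM and of 15.47, 16.36 and 17.57 after LPS. With MK2 deleted its log2 signals were 9.06, 10.72, 8.66 and 9.87 in medium and 16.18, 15.54, 16.45 and 16.60 after LPS. MK2/3-/- BMDM gave 10.47, 10.29 and 9.76 in medium and 16.91, 16.73, 17.29 and 17.07 after LPS. Every LPS-treated array thus lay above every medium-treated array, and among the LPS-treated groups wt spread most, with an SD of 1.05 (n = 3) against 0.47 in MK2-/- and 0.24 in MK2/3-/- (n = 4 each). The log2 difference between LPS and medium was 6.40 in wt (SE 0.47, 84.7-fold, limma adjusted p 4.93e-09), 6.61 in MK2-/- (SE 0.44, 98.0-fold, adjusted p 5e-10) and 6.82 in MK2/3-/- BMDM (SE 0.47, 113-fold, adjusted p 1.09e-09). Ordered by this difference in wt, Tnf had rank 46 of 22383 genes.

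Lta was at the edge of detection without LPS. Its probe (NM_010735, 10 spots) was well above background on only 1 of 4 medium-treated wt arrays, with log2 signals of 3.03, 2.76, 2.55 and 4.00, and reached 7.51, 8.36 and 8.34 after LPS. In medium-treated MK2-/- BMDM no array was well above background (2.35, 2.98, 3.30 and 2.59), and the LPS-treated arrays gave 8.60, 8.27, 10.37 and 8.12. MK2/3-/- BMDM had 5.25, 2.45 and 2.80 in medium, the first of them alone well above background, and 9.52, 9.48, 9.49 and 9.06 after LPS. The lowest array with LPS was therefore above the highest without it. The probe passed the limit on dim probes through the LPS-treated arrays, so the sizes of these differences are uncertain. The fitted log2 difference was 4.99 in wt (SE 0.58, adjusted p 1.3e-06) and 5.89 in MK2/3-/- (SE 0.58, adjusted p 8.78e-08), where it went from 5.36 to 6.76 when 1 array was left out, the higher value without medium replicate 1. The fit for MK2-/- BMDM had a limma adjusted p of 2.15e-08. On the scale of the processed signal, the rise there was 39.7-fold against the lowest signal of any probe that counts as well above background. This is no strict bound, as Tnfsf10 was not well above background at 4.64 in medium replicate 4 of MK2-/- BMDM. The value of 10.37 rests on a single spot of 10, on an array on which 2927 spots were marked as uneven or as outliers, compared with at most 261 on any other. Without this array the fold was 27.9. Neither fold holds on the scale of normexp background correction, which lifts dim probes. It gave fitted log2 responses of Lta of 2.13 in wt, 2.82 in MK2-/- and 3.17 in MK2/3-/- BMDM.

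**Figure D1:**
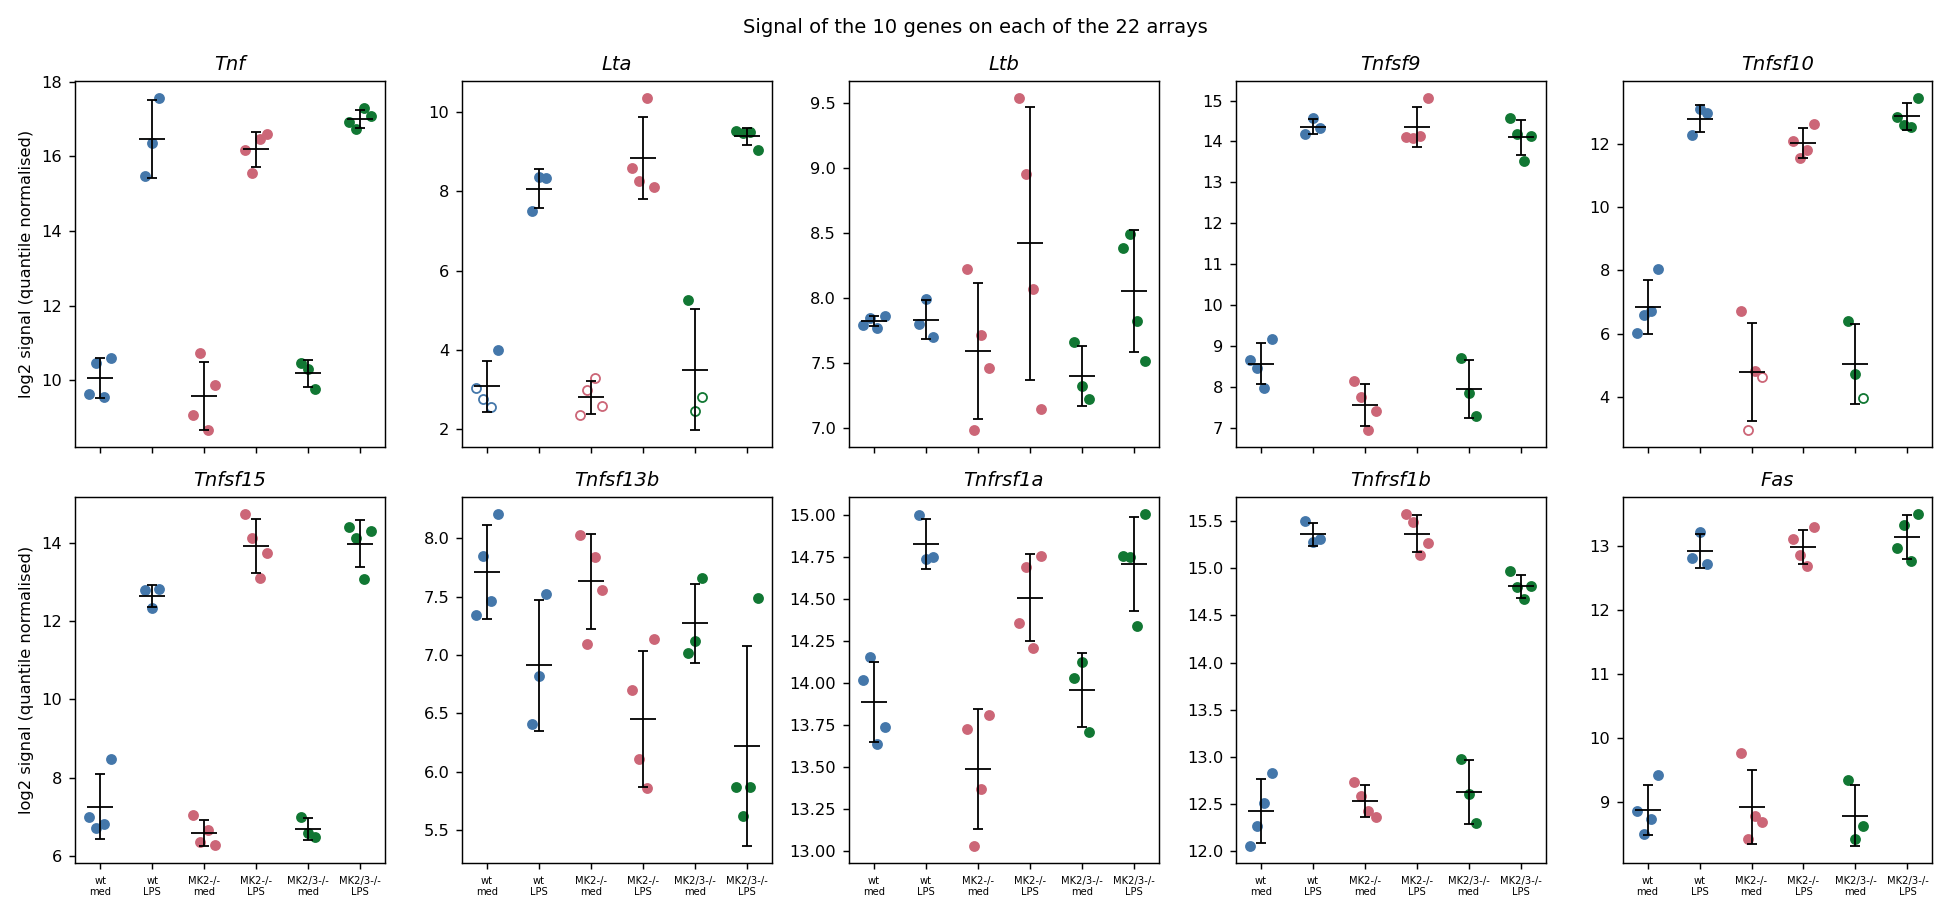
Log2 signal (quantile normalised) of the 10 genes on each array, by genotype and treatment (med, medium); points are arrays, open where the probe was not well above background, and bars give the mean and SD of the group. For 8 of the 10 genes every LPS-treated array lies above every medium-treated array, whereas Ltb and Tnfsf13b overlap. Within a genotype, the arrays of both treatments did not overlap for 48.6% (wt), 40.3% (MK2-/-) and 50.1% (MK2/3-/-) of all genes. The vertical axes differ between genes.

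The other ligands that rose were Tnfsf9, which encodes the 4-1BB ligand, Tnfsf10, which encodes the death ligand TRAIL, and Tnfsf15, which encodes TL1A, the ligand of death receptor 3. Tnfsf10 (NM_009425) had log2 signals of 6.03, 6.58, 6.73 and 8.06 in medium and 12.30, 13.10 and 12.99 after LPS in wt BMDM. The MK2-/- arrays had 6.72, 2.94, 4.81 and 4.64 in medium, of which 2 arrays were well above background, and 12.11, 11.55, 11.81 and 12.64 after LPS. MK2/3-/- BMDM showed 6.41, 4.73 and 3.95 without and 12.86, 12.62, 12.55 and 13.47 with LPS. The knockout groups in medium spread over a wide range, with 1 array each near the wt level and the others below all wt arrays. The LPS response was a log2 difference of 5.95 in wt (SE 0.67, adjusted p 9.97e-07), 7.25 in MK2-/- (SE 0.62, adjusted p 1.49e-08) and 7.85 in MK2/3-/- BMDM (SE 0.67, adjusted p 1.62e-08). With normexp background correction these responses were 5.26, 5.27 and 6.12.

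Tnfsf15 (NM_177371) had log2 signals of 6.99, 6.72, 6.83 and 8.49 in medium-treated and 12.80, 12.33 and 12.82 in LPS-treated wt BMDM. The MK2-/- arrays gave 7.04, 6.35, 6.67 and 6.29 in medium and 14.74, 14.11, 13.09 and 13.73 after LPS. In MK2/3-/- BMDM the log2 signals were 7.01, 6.58 and 6.49, and 14.39, 14.13, 13.08 and 14.29. All 8 LPS-treated knockout arrays lay above the 3 LPS-treated wt arrays, while in medium the groups overlapped. Groups that did not overlap under LPS were found for 26.1% of all genes between MK2-/- and wt and for 28.2% between MK2/3-/- and wt BMDM. The log2 difference between LPS and medium was 5.39 in wt (SE 0.42, 42.0-fold, adjusted p 9.4e-09) and 5.80 without wt medium replicate 4. It was 7.33 in MK2-/- (SE 0.39, 161-fold, adjusted p 4.89e-11) and 7.28 in MK2/3-/- BMDM (SE 0.42, 155-fold, adjusted p 1.51e-10). Tnfsf9 (NM_009404) ranged from 6.94 to 9.18 on the medium-treated and from 13.52 to 15.07 on the LPS-treated arrays of all genotypes. Its LPS response was 55.7-fold in wt, 110-fold in MK2-/- and 71.4-fold in MK2/3-/- BMDM (log2 differences of 5.80, 6.79 and 6.16, each with an adjusted p of at most 8.93e-10).

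Ltb and Tnfsf13b, which encodes the B cell survival factor BAFF, were not called in wt after LPS. For Ltb (NM_008518) the wt arrays gave log2 signals of 7.79, 7.84, 7.77 and 7.86 in medium and 7.80, 7.99 and 7.70 after LPS, a difference of 0.02 with a 95% confidence interval from -0.84 to 0.87. In the knockouts Ltb spread more after LPS, with 9.54, 8.95, 8.07 and 7.14 in MK2-/- and 8.38, 8.49, 7.82 and 7.51 in MK2/3-/- BMDM, against 6.98 to 8.22 and 7.22 to 7.66 in medium. The LPS responses of 0.83 and 0.65 were not called (adjusted p 0.0818 and 0.205), and the first was called without LPS replicate 4 (1.26, adjusted p 0.0035) or medium replicate 1 of MK2-/- BMDM (1.04, adjusted p 0.0431), with 75th percentile scaling (0.86, adjusted p 0.0468) and with array weights (1.11, adjusted p 0.011). Tnfsf13b (NM_033622) went from 7.34, 7.85, 7.46 and 8.21 to 6.41, 6.82 and 7.52 in wt, and the overlapping groups were not called (-0.80, SE 0.41, adjusted p 0.13). In MK2-/- BMDM it fell by 1.18 (SE 0.38, adjusted p 0.0161), from 8.03, 7.09, 7.84 and 7.56 to 6.70, 6.11, 5.86 and 7.14. The fall by 1.05 in MK2/3-/- BMDM (SE 0.41, adjusted p 0.042) was from 7.02, 7.12 and 7.66 to 5.87, 5.62, 5.87 and 7.49. In either knockout a single LPS-treated array reached the range of the medium-treated arrays. The call in MK2-/- BMDM was lost without LPS replicate 3 (-0.98, adjusted p 0.0578), without medium replicate 1 (-1.05, adjusted p 0.0522), and without both arrays that lack Y-linked signal (-0.91, adjusted p 0.112). In MK2/3-/- BMDM the call was lost without any 1 of 6 of its 7 arrays, LPS replicate 4 being the exception (adjusted p 0.0531 to 0.158), and also with 75th percentile scaling (-0.70, adjusted p 0.118) and with normexp (-0.59, adjusted p 0.0649). It was also lost with only the groups compared (adjusted p 0.112) and by the per-gene test of the methods, adjusted over all genes (adjusted p 0.19).

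The genes around Tnf, Lta and Ltb were set beside them. In the RefSeq order the next 5 protein-coding genes on either side are Apom, Bag6, Prrc2a, Aif1 and Lst1 before Ltb, and Nfkbil1, Atp6v1g2, Ddx39b, H2-D1 and H2-Q1 behind Lta. These 10 genes had LPS responses between -0.88 and 0.70 in wt, between -0.85 and 0.71 in MK2-/- and between -1.1 and 0.98 in MK2/3-/- BMDM on the log2 scale, compared with at least 4.99 for Tnf and Lta. Of the 10, 2 were called after LPS in wt, 3 in MK2-/- and 5 in MK2/3-/- BMDM, where 42.1%, 44.6% and 48.2% of all genes were.

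**Figure D2:**
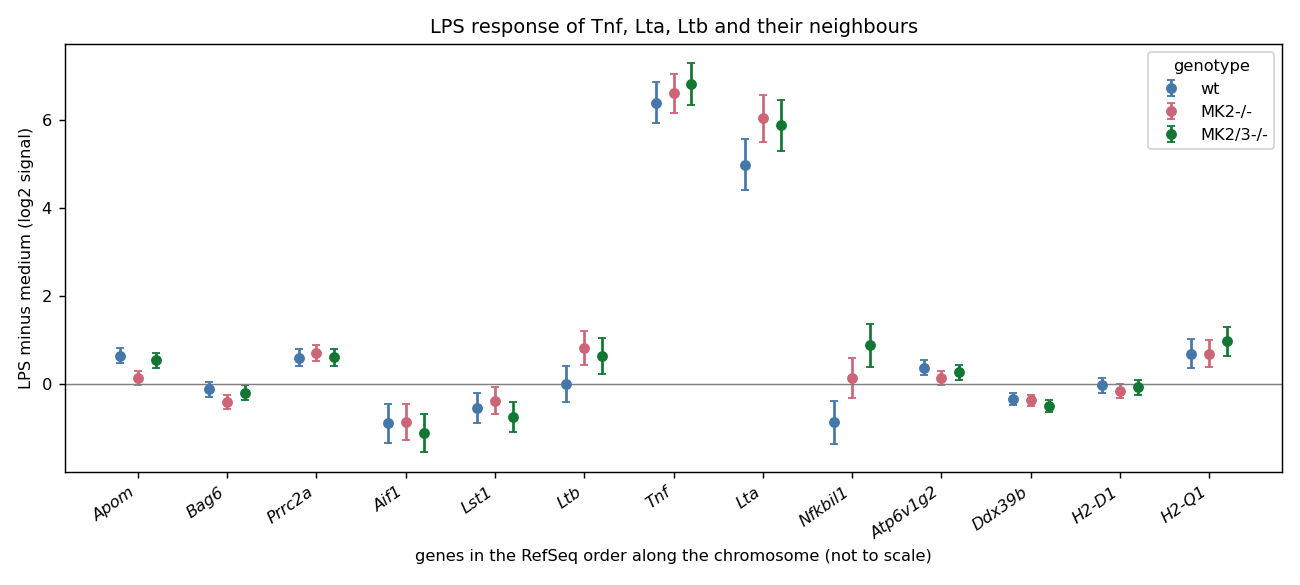
LPS response (log2 signal with LPS minus medium, mean difference ± SE from limma) of Tnf, Lta, Ltb and the 5 protein-coding genes on each side, in chromosomal order, for wt, MK2-/- and MK2/3-/- BMDM. Tnf and Lta stand between 4.99 and 6.82, and Ltb and the other 10 genes between -1.1 and 0.98.

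Of the receptors, Fas and Tnfrsf1b rose clearly and Tnfrsf1a modestly. Tnfrsf1b (NM_011610) had log2 signals of 12.05, 12.27, 12.51 and 12.83 in medium-treated wt BMDM and of 15.50, 15.28 and 15.31 after LPS. The MK2-/- values were 12.73, 12.58, 12.42 and 12.36 without and 15.58, 15.49, 15.14 and 15.27 with LPS, and in MK2/3-/- BMDM 12.98, 12.61 and 12.30, and 14.97, 14.80, 14.68 and 14.81. The 4 LPS-treated MK2/3-/- arrays were below all 7 LPS-treated arrays of wt and MK2-/- BMDM, which overlapped each other. Under LPS, MK2/3-/- arrays did not overlap with wt arrays for 28.2% of all genes and with MK2-/- arrays for 13.3%. Tnfrsf1b rose 7.72-fold in wt, 7.18-fold in MK2-/- and 4.55-fold in MK2/3-/- BMDM (log2 differences of 2.95, 2.84 and 2.18, each with an SE of 0.18 or 0.19 and an adjusted p of at most 2.44e-08). Fas (NM_007987), which encodes the receptor of Fas ligand, ranged from 8.42 to 9.76 in medium and from 12.68 to 13.50 after LPS. Its rises in the 3 genotypes were 16.4-fold, 16.7-fold and 20.3-fold (log2 4.04, 4.06 and 4.34, adjusted p at most 7.22e-09).

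Tnfrsf1a (NM_011609), the receptor through which TNF signals in most cells, was measured with 2 probes. The probe tested ranged from 13.03 to 14.16 in medium and from 14.21 to 15.01 after LPS. It rose 1.91-fold in wt (log2 0.94, adjusted p 0.00171), 2.03-fold in MK2-/- (1.02, adjusted p 0.000308) and 1.69-fold in MK2/3-/- BMDM (0.76, adjusted p 0.00669). The second probe rose by 1.34, 0.97 and 1.44 on the log2 scale, called in all 3 genotypes when 28103 probes were tested separately, and neither probe was called between genotypes.

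Counted together, 8 of the 10 members were called in wt BMDM (adjusted p below 0.05), all higher after LPS and Lta among them, where 42.1% of all genes were called, 18.6% as higher and 23.5% as lower. In MK2-/- BMDM 8 were called higher and 1 lower (17.5% and 27.1% of all genes, 44.6% in all), and in MK2/3-/- BMDM again 8 and 1 (20.2% and 27.9%, 48.2% in all). The median LPS response of the members was 4.52, 5.05 and 5.12 in wt, MK2-/- and MK2/3-/- BMDM, beside -0.04, -0.01 and 0.01 over all genes. The members were chosen with earlier results of these data known, and Lta passed the limit on dim probes through the LPS-treated arrays. These counts and medians therefore describe the members and test nothing about the family. The arrays of both treatments did not overlap for 8 members in each genotype, where this held for 48.6%, 40.3% and 50.1% of all genes. Without the 2 arrays that lack Y-linked signal, 8 members were called in MK2-/- BMDM, Tnfsf13b being the one that was lost.

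**Figure D3:**
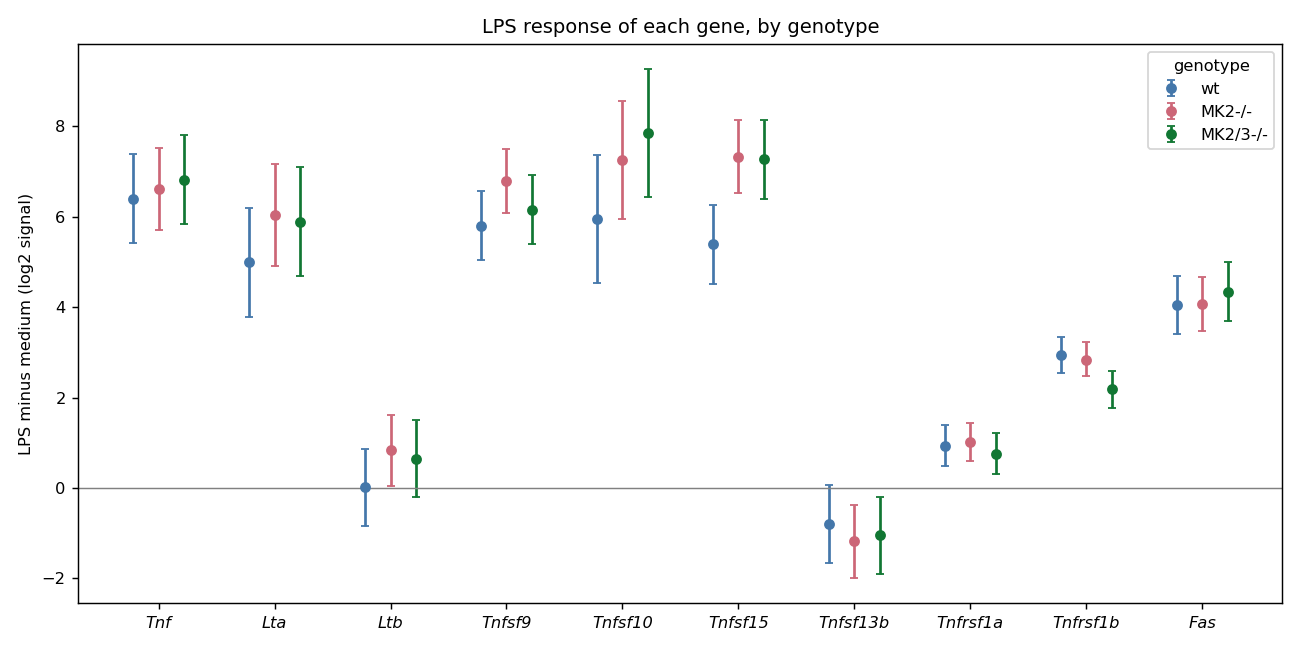
LPS response of the 10 members (log2 signal with LPS minus medium) in wt, MK2-/- and MK2/3-/- BMDM; points are limma estimates and bars their 95% confidence intervals. Tnf, Lta, Tnfsf9, Tnfsf10 and Tnfsf15 lie between 4.99 and 7.85, Fas near 4, Tnfrsf1b between 2.18 and 2.95, Tnfrsf1a between 0.76 and 1.02, Ltb between 0.02 and 0.83, and Tnfsf13b between -1.18 and -0.80.

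Genotypes were next compared under LPS, to learn whether the level of these transcripts depended on MK2 or on both kinases. Between MK2-/- and wt BMDM 0 of the 10 members were called by limma, where 11.6% of all genes were. The per-gene test of the methods, adjusted in the same way, also gave 0. At an unadjusted p below 0.05 by limma there was 1 member, beside 6601 of the 22383 genes tested. Between MK2/3-/- and wt BMDM 2 were called, where 23.6% of all genes were, and between MK2/3-/- and MK2-/- BMDM 1, where 13.5% were. These shares are not above the background of all genes.

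Tnf was not called by limma in any of these comparisons. Its log2 difference was -0.27 in MK2-/- relative to wt (95% confidence interval -1.26 to 0.71, adjusted p 0.736), 0.53 in MK2/3-/- relative to wt (-0.45 to 1.52, adjusted p 0.439) and 0.81 in MK2/3-/- relative to MK2-/- BMDM (-0.11 to 1.72, adjusted p 0.24). The 4 MK2/3-/- arrays lay above the 4 MK2-/- arrays, and groups that did not overlap were found for 13.3% of all genes. The per-gene test of the methods gave an unadjusted p of 0.0224 for Tnf here. The difference between MK2-/- and wt turned to 0.28 without replicate 3 of LPS-treated wt BMDM, the array with the highest Tnf, and was -0.36 without both arrays lacking Y-linked signal. The log2 signal of Lta exceeded that of wt by 0.77 in MK2-/- (adjusted p 0.392) and by 1.32 in MK2/3-/- BMDM (adjusted p 0.105). The first value was 0.26 without the array with a single usable spot. The second was called without medium replicate 1 of MK2/3-/- BMDM (1.32, adjusted p 0.042), with only the groups compared (1.32, adjusted p 0.0421) and after normexp background correction (1.1, adjusted p 0.0127). These groups, at 9.06 to 9.52 and 7.51 to 8.36, did not overlap, as was so for 28.2% of all genes. Between MK2/3-/- and MK2-/- BMDM the Lta difference was 0.55 (adjusted p 0.558), and 1.06 without that array.

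The mean of Tnfsf15 lay above that of wt in both knockouts. Relative to wt the log2 difference was 1.32 in MK2/3-/- (SE 0.42, 2.50-fold, adjusted p 0.029) and 1.27 in MK2-/- BMDM (SE 0.42, 2.41-fold, adjusted p 0.0555), of which only the first was called. The first call was lost without any of the 3 LPS-treated wt arrays or without LPS replicate 1, 2 or 4 of MK2/3-/- BMDM (1.16 to 1.40, adjusted p 0.0531 to 0.099). The second difference was called without wt medium replicate 4 (1.27, adjusted p 0.0295), MK2-/- LPS replicate 3 (1.54, adjusted p 0.028) or MK2/3-/- LPS replicate 3 (1.27, adjusted p 0.0378), and without both arrays lacking Y-linked signal (1.54, adjusted p 0.0346). It was also called with the replicate block by array-name letter (1.29, adjusted p 0.0495), with normexp (1.25, adjusted p 0.0264) and with array weights (1.6, adjusted p 0.00751).

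Tnfrsf1b was lower in MK2/3-/- BMDM, by 0.55 relative to wt (SE 0.19, 0.683 of the wt level, adjusted p 0.0463) and by 0.55 relative to MK2-/- (SE 0.18, 0.681 of that level, adjusted p 0.0464). Wt and MK2-/- BMDM differed by 0.00, with a 95% confidence interval from -0.40 to 0.41. Both adjusted p-values were close to the threshold. Of 22 fits that each left out 1 array, 15 ended the call against wt (-0.60 to -0.48, adjusted p 0.0505 to 0.153). It was kept without wt medium replicate 1 or 4, MK2-/- LPS replicate 3, MK2-/- medium replicate 1 or 2, or MK2/3-/- medium replicate 1 or 3, and was lost without both arrays lacking Y-linked signal (-0.55, adjusted p 0.0535). That against MK2-/- was ended by 14 of them (-0.59 to -0.49, adjusted p 0.0506 to 0.138). It was kept without wt LPS replicate 1, wt medium replicate 1 or 4, MK2-/- LPS replicate 3, MK2-/- medium replicate 2, MK2/3-/- LPS replicate 1, or MK2/3-/- medium replicate 1 or 3, and also without both arrays lacking Y-linked signal (-0.63, adjusted p 0.0446).

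**Figure D4:**
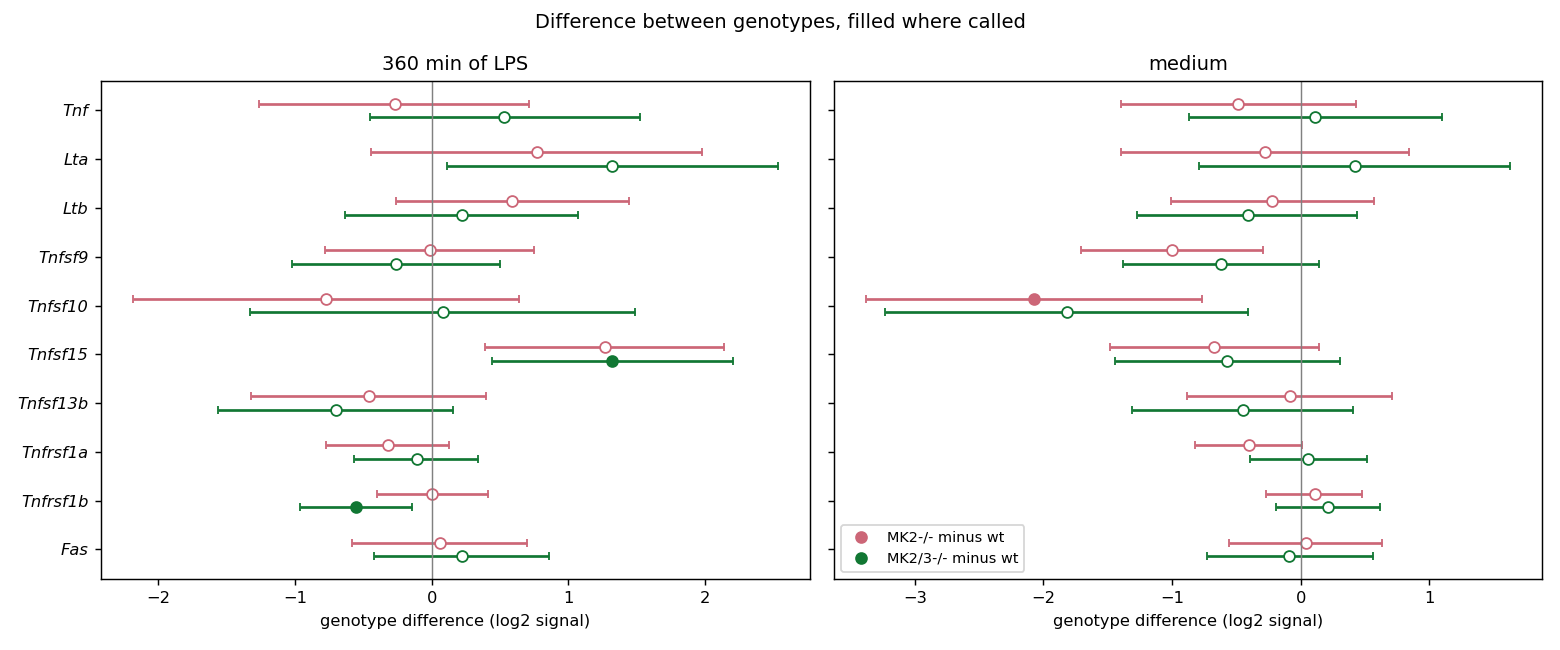
Difference of the log2 signal of each member between MK2-/- or MK2/3-/- and wt BMDM, under LPS (left) and in medium (right), as limma estimates with 95% confidence intervals; filled points were called at an adjusted p below 0.05. Under LPS Tnfsf15 (1.32) and Tnfrsf1b (-0.55) were called in MK2/3-/- BMDM, and in medium Tnfsf10 (-2.07) in MK2-/- BMDM.

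In medium, 1 of the 10 members was called between MK2-/- and wt BMDM, where 8.82% of all genes were. This was Tnfsf10, whose mean log2 signal was 4.78 without MK2 against 6.85 in wt (difference -2.07, SE 0.62, adjusted p 0.0455), although the groups overlapped and 2 of 4 MK2-/- arrays were not well above background. Leaving out 1 array at a time ended the call in 15 of 22 fits (-2.35 to -1.46, adjusted p 0.0502 to 0.17). It was kept without wt LPS replicate 1, MK2-/- LPS replicate 3, MK2-/- medium replicate 1, MK2/3-/- LPS replicate 3 or 4, or MK2/3-/- medium replicate 1 or 3. Without both arrays lacking Y-linked signal it was also lost (-2.08, adjusted p 0.0845), and normexp background correction reduced the difference to -0.81 (adjusted p 0.125). No member was called by limma between MK2/3-/- and wt (2.02% of all genes) or between MK2/3-/- and MK2-/- BMDM (2.82%). The adjusted per-gene test of the methods also gave 0 in both comparisons. At an unadjusted p below 0.05 by limma there was 1 member in each, Tnfsf10 and Tnfrsf1a. Of the 22383 genes tested, 3784 and 3358 were below it. The value of Tnfsf10 in MK2/3-/- relative to wt was -1.82 (SE 0.67, adjusted p 0.165), and that of Tnfsf9 in MK2-/- relative to wt was -1.0 (SE 0.34, adjusted p 0.0704). Tnfsf15 was at -0.67 (adjusted p 0.282) and -0.57 (adjusted p 0.527) in MK2-/- and MK2/3-/- BMDM relative to wt.

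When the LPS responses themselves were subtracted between genotypes, arrays of 1 slide were compared with each other first, so that an additive effect of the slide cancels. By limma 0 of the 10 members were called in each of the 3 such comparisons. At an unadjusted p below 0.05 there were 1, 2 and 1 members, beside 1685, 2545 and 1926 of the 22383 genes tested. Of all genes, 0%, 0.679% and 0.067% were called for MK2-/- minus wt, MK2/3-/- minus wt and MK2/3-/- minus MK2-/-. Tnfsf15 had the highest value among the members in MK2-/- BMDM, with a response 1.94 higher than in wt (SE 0.57, adjusted p 0.386), and 1.89 higher in MK2/3-/- BMDM (SE 0.59, adjusted p 0.151). Without wt medium replicate 4 these values were 1.53 and 1.48. Tnfsf10 had 1.30 (SE 0.92, adjusted p 0.793) and 1.90 (SE 0.95, adjusted p 0.472). The response of Tnfrsf1b in MK2/3-/- BMDM stood at -0.76 relative to wt (SE 0.27, adjusted p 0.232) and at -0.66 relative to MK2-/- (SE 0.26, adjusted p 0.487). For Tnf the differences from wt were 0.21 in MK2-/- (95% confidence interval -1.13 to 1.56) and 0.42 in MK2/3-/- BMDM (-0.98 to 1.81). With this number of arrays, changes of its LPS response within these bounds are thus not excluded. The intervals are not adjusted over all genes and are no limit of detection, as larger differences of other members were not called either.

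Other genes of the pathway were followed with 3 lists. Of 9 tested ligands of the family other than the members, 5 rose in wt BMDM after LPS and 0 fell by limma, with 0 lower at an unadjusted p below 0.05 (median 1.17, beside -0.04 over all genes, of which 18.6% rose and 23.5% fell). Tnfsf4, the OX40 ligand, rose by 6.82 on the log2 scale (SE 0.69, adjusted p 2.22e-07) and Tnfsf8, the CD30 ligand, by 3.35 (adjusted p 3.02e-05). Tnfsf18, the GITR ligand, rose 6.21-fold against the lowest signal that counts as well above background, and its fit had an adjusted p of 0.00188. For Tnfsf4, 2 of 4 medium-treated wt arrays were well above background, and without wt medium replicate 4 its rise was 7.45. Over all 38 settings its rise ranged from 4.08 to 7.54. For Tnfsf18, 0 of the 4 medium-treated wt arrays were well above background. Its fold is no strict bound, applies to the processed signal with all arrays and does not hold under every setting. The fitted log2 rise of Tnfsf18 ranged from 2.38 to 3.27 when 1 array was left out, and from 1.08 to 3.51 over all 38 settings. In MK2-/- BMDM 5 of these ligands rose and 1 fell, where 17.5% of all genes rose and 27.1% fell. In MK2/3-/- BMDM 6 rose and 0 fell, where 20.2% and 27.9% of all genes did.

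Among 23 tested receptors other than the members, 6 rose and 4 fell in wt BMDM (median 0.36), where 18.6% of all genes rose and 23.5% fell. Cd40, the receptor of CD40 ligand, rose 132-fold (log2 7.04, SE 0.56, adjusted p 1.3e-08), and by 7.88 on the log2 scale without wt medium replicate 4. Tnfrsf9, the receptor 4-1BB, rose by 3.46 (adjusted p 1.45e-07) and Tnfrsf8, which encodes CD30, by 1.37 (adjusted p 0.0148, with 2 of 4 medium-treated arrays well above background). Tnfrsf21, which encodes death receptor 6, fell by 2.60 (adjusted p 1.16e-07), Tnfrsf18, which encodes GITR, by 2.50 (adjusted p 0.000132) and Tnfrsf23, a decoy receptor of TRAIL, by 1.67 (adjusted p 0.0163). The call of Tnfrsf8 was lost without wt LPS replicate 1 or wt medium replicate 2, and that of Tnfrsf23 without wt LPS replicate 2 or 3 or wt medium replicate 1. Counted over all 38 settings, 3 ended the call of Tnfrsf8 and 7 that of Tnfrsf23. The values ranged from 0.33 to 1.89 for Tnfrsf8 and from -2.29 to -0.75 for Tnfrsf23. In MK2-/- BMDM 5 of the receptors rose and 4 fell (17.5% and 27.1% of all genes), and in MK2/3-/- BMDM 6 rose and 5 fell (20.2% and 27.9%). The ligand Tnfsf9 and its receptor Tnfrsf9 thus both rose in wt, whereas for GITR the ligand rose and the receptor fell.

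Of 28 genes that act in TNF receptor signalling or in the shedding of TNF, 12 rose and 6 fell in wt BMDM (median 0.28, beside -0.04 over all genes, of which 18.6% rose and 23.5% fell). Tnfaip3, which encodes the ubiquitin-editing inhibitor A20, rose 58.6-fold (log2 5.87, SE 0.35, adjusted p 5.51e-10), Cflar, which encodes the caspase-8 inhibitor cFLIP, 40.6-fold (adjusted p 8e-10) and Traf1, an adaptor bound by TNFR2, 35-fold (adjusted p 6.76e-09). Map3k14, the NF-κB-inducing kinase, fell by 2.56 on the log2 scale (adjusted p 0.000297), Tab1, a partner of the kinase TAK1, by 2.35 (adjusted p 1.73e-07) and Cyld, a deubiquitinase, by 2.20 (adjusted p 1.75e-06). Another probe of Cyld, the one with the highest induction in wt, gave 0.09 (adjusted p 0.834). Map3k14 ranged from -2.87 to -0.95 over all 38 settings, and its call was kept in each. In the MK2-/- cells 15 genes of this list rose and 9 fell (17.5% and 27.1% of all genes), and in MK2/3-/- BMDM 15 rose and 7 fell (20.2% and 27.9%). In the differences of the LPS response 0 of the 60 genes tested in the 3 lists were called by limma. At an unadjusted p below 0.05 there were 10, 5 and 2 for MK2-/- minus wt, MK2/3-/- minus wt and MK2/3-/- minus MK2-/-. Of the 22383 genes tested, 1685, 2545 and 1926 were below it in these comparisons.

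Genes with the most similar pattern were looked for by Pearson's r over the 22 arrays, which share the contrast of LPS and medium, so that high values are common among LPS-inducible genes. For Tnf they were Nfkbiz, an NF-κB cofactor (r = 0.994), Spryd7 (r = 0.993) and Icam1, an adhesion molecule (r = 0.991). Over the 11 LPS-treated arrays alone, their r with Tnf was 0.828, 0.870 and 0.879, and over the 11 medium-treated arrays 0.824, 0.726 and 0.461. The closest gene to Lta was Nlrp3, the inflammasome sensor (r = 0.975, with 0.769 over the LPS-treated and 0.301 over the medium-treated arrays alone). With the values in this order, the closest gene to Tnfsf9 was Gch1 (0.994, 0.345 and 0.851). To Tnfsf10 it was Slfn3 (0.986, 0.707 and 0.866), and to Tnfsf15 Cers6 (0.991, 0.927 and 0.442). Fas was closest to Stx11 (0.992, 0.586 and 0.789) and Tnfrsf1b to Cyria (0.993, 0.905 and 0.759). Tnfrsf1a was closest to Wac (0.951, 0.804 and 0.856) and Tnfsf13b to H2bu2 (0.951, 0.933 and 0.809). Ltb, with little difference between the treatments, had the lowest closest value over the 22 arrays, 0.796 with Mon1b (0.844 and 0.343 within the treatments).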

How the data were processed

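RNA of each culture was labelled with Cy3 and hybridised to 1 Agilent 8x60K array, and the authors deposited the scanner files of Feature Extraction 11.0.1.1. Per the file headers, the processed signal is a background-corrected intensity, and the deposited table of the series holds log2 values centred on about 0. The array design was annotated on mm9. Here, log2 of the processed signal was quantile normalised over 22 arrays, without 3671 control spots and without spots marked as uneven or as outliers, and spots of a probe were averaged. Probes well above background (at least 50% of their spots) on at least 3 arrays were kept (28103 of 55681), and the probe of highest mean signal stood for a gene. RefSeq accessions gave the symbols. Limma 3.58.1 in R 4.3.3 was fitted to the 6 group means, with moderated variances and Benjamini-Hochberg adjustment over 22383 genes, and a gene was called at an adjusted p below 0.05. For a fold against a group with no array well above background, signals below the lowest well above background of any probe on the array were raised to it. Such a fold is no strict bound. The median processed signal per array was 32.7 to 108, 61.7% to 83% of spots were well above background, and 0 spots were saturated. The number of arrays limits the precision.

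The 10 members and the lists of other ligands, receptors, signalling genes and cell type markers were chosen with earlier results of these data known. The text names all members, the 3 list genes with the strongest rise and fall per list in wt, and the 3 genes closest to a member by Pearson's r, or the closest one, any list gene called in a difference of the LPS response, and Mapkapk2 and Mapkapk3 as a check of the labels. Neighbours came from the RefSeq order. Alternatives were 75th percentile scaling, normexp correction, other probe and filter rules, fewer groups, array weights, replicate blocks, the methods' t-test and leaving out each array. Scripts were tested on simulated data.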

Additional observations from a re-analysis of the deposited data

Results flagged for a closer look

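In 4 of the 44 sets of arrays tested for the 11 member probes (groups of 4 arrays), 1 array lay apart from the others by Dixon's criterion, and chance alone marks about 1 in 20 of such sets. Tnfsf15 had a log2 signal of 8.49 in replicate 4 of medium-treated wt BMDM, against 6.72 to 6.99 in the others, on the array on which Tnfsf10 was also highest. Lta had 9.06 in replicate 4 of LPS-treated MK2/3-/- BMDM, against 9.48 to 9.52, and on the same array Tnfsf13b had 7.49, against 5.62 to 5.87. Tnfsf9 had 15.07 in replicate 4 of LPS-treated MK2-/- BMDM, against 14.08 to 14.14.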

How the results depend on the processing

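For the 54 reported differences of the members, 1924 of 2036 values under other settings kept direction and side of the threshold, 84 lost the call, 21 gained it and 7 changed sign. The 8 members called in wt after LPS numbered 8 under all 38 settings, with 8 to 10 in MK2-/- and 8 to 9 in MK2/3-/- BMDM. Between MK2-/- and wt under LPS, 1 member in place of 0 was called with normexp, with the replicate block by array-name letter, with array weights, with the methods' t-test unadjusted, without the 2 arrays that lack Y-linked signal, and without these and wt medium replicate 4, the last 2 settings being chosen after the data were seen. Leaving out each array gave 0 to 1. Between MK2/3-/- and wt under LPS, 1 in place of 2 was called with 75th percentile scaling, with array weights and without the arrays lacking Y-linked signal, and with only the groups compared, where the 1 was Lta and neither of the 2 was called. There were 0 with the adjusted t-test, and 0 to 3 when each array was left out. Between MK2/3-/- and MK2-/- under LPS, 0 in place of 1 was called with 75th percentile scaling, only the groups compared, array weights and the adjusted t-test, 3 with the unadjusted t-test, and 0 to 1 when leaving out each array. Between MK2-/- and wt in medium, 0 in place of 1 was called with 75th percentile scaling, normexp, no filter, only the groups compared, the adjusted t-test and both settings without doubted arrays, 2 with array weights, and 0 to 1 on leaving out each array. In MK2/3-/- against wt in medium, 1 in place of 0 was called with array weights and the unadjusted t-test. The share of all genes called under each of these settings is not given, so the counts are not read as results about the members. By limma at an unadjusted p below 0.05, 6601 of the 22383 genes stood between MK2-/- and wt under LPS. Between MK2/3-/- and MK2-/- under LPS there were 6340, and between MK2/3-/- and wt in medium 3784.

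Sign changes among the members concerned uncalled values. Leaving out each array, Ltb in wt ranged from -0.07 to 0.08, Tnf between MK2-/- and wt under LPS from -0.77 to 0.28, and the difference of its LPS response from -0.29 to 0.76 (MK2-/- minus wt) and from -0.08 to 0.97 (MK2/3-/- minus wt). The value for MK2-/- minus wt was -0.18 without the arrays lacking Y-linked signal and -0.36 without these and wt medium replicate 4. Cyld changed to 0.09 with the probe of highest induction in wt. The cause of these changes was not tested. Receptors called lower in wt numbered 7 instead of 4 with array weights and 2 to 7 on leaving out each array. The labels do not say whether a replicate number or an array-name letter marks a shared animal. In 10 of 10 pairs of the same letter the LPS-treated and medium-treated cells came from mice of the same age, and deviations correlated above 0.1 in 7 of 10 pairs by number or letter. With either replicate block Tnf in wt rose by 6.42, and the block by letter changed the call of Tnfsf15 between MK2-/- and wt under LPS, with no other call of the members changed by either block. Scaling to the 75th percentile shifted the median of all genes by up to 0.34. Normexp used the median spot signal. The deposited table, with column medians of -0.07 to 0.08, correlated at 0.992 to 0.999 with the scanner values centred per probe.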

Other observations

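Of the 60 other genes of the pathway tested, 5 were called under LPS when MK2-/- was compared with wt BMDM, 13 for MK2/3-/- relative to wt, and 5 for MK2/3-/- relative to MK2-/-. Of all genes, 11.6%, 23.6% and 13.5% were called in these comparisons. In medium the counts were 7, 1 and 1, where 8.82%, 2.02% and 2.82% of all genes were called.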
